A study of Mus musculus with 3 samples.

Results

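Genes of apoptosis and necroptosis were followed across 3 libraries of ribosome-bound RNA from mouse brain. The set was a fixed list of 40 gene symbols, and 38 of them were rows of the deposited table of 16610 genes. Casp4 and Mlkl are not analysed here. Each library came from the middle section of 1 hemisphere and pooled 3 animals, with 2 technical replicates per pool. Per the labels, the groups were the left hemisphere of animals with MCAO (middle cerebral artery occlusion, a model of stroke in which a main artery of the brain is blocked), the right hemisphere of those animals (contralateral) and the right hemisphere of animals with no MCAO (control). The occlusion lasted 1 h and the animals were killed after 3 days. All 3 libraries came from RiboTag immunoprecipitation, which recovers translated transcripts through a tagged protein of the ribosome. The series title names astrocytes, and the labels give neither the driver line that chose the tagged cells nor strain, sex or age.

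Apoptosis runs along 2 routes. In the extrinsic route, death receptors of the TNF receptor family recruit the adaptor FADD and caspase-8. In the intrinsic route, BH3-only proteins release BAX and BAK to open the outer mitochondrial membrane, which BCL2 and its relatives oppose, and the cytochrome c that escapes assembles APAF1 and caspase-9 into the apoptosome. Necroptosis is a lytic death driven by the kinases RIPK1 and RIPK3 and the pore-forming protein MLKL, and caspase-8 holds it in check. In ischaemic brain these pathways are studied in neurons, glia and infiltrating immune cells alike, and several of the receptors and kinases also carry inflammatory signals that do not kill the cell.

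The values are normalised counts, that is, reads per gene divided by 1 size factor per library. There was 1 library per group, so no difference has a replicate check and none was tested. Differences are given on the log2(normalised count + 5) scale, and a gene is called higher or lower at a difference of at least 2-fold on that scale. Folds are plain ratios of normalised counts, with 95% Clopper-Pearson intervals that cover counting error only. Gene spans are those of RefSeq for GRCm38.p6, known as mm10. Left cannot be told apart from occluded, because no left hemisphere without MCAO was among the libraries. The recovered depth was 25930258 reads for the MCAO left hemisphere, 33886604 for the contralateral and 31833456 for the control.

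The libraries held more than astrocyte transcripts. The 10 astrocyte markers summed to 340734 normalised counts in the MCAO left hemisphere, 358844 in the contralateral and 368509 in the control, and none of them was called in any comparison. The 10 neuron markers summed to 248777, 259000 and 296362 in the same libraries. The 20 microglia and macrophage markers summed to 38251 in the MCAO left hemisphere, against 12513 in the contralateral and 12292 in the control. Of these, 17 of 20 were called higher against both right hemispheres, beside 2.58% of all genes tested. The exceptions were P2ry12, Tmem119 and Aif1. P2ry12 had 418, 382 and 405 in the MCAO left, contralateral and control libraries. Tmem119 had 587, 403 and 475, and Aif1 had 159, 259 and 79.4. The 2 of 8 neutrophil markers in the table, Csf3r and S100a9, summed to 331, 111 and 87.2. Most of that was Csf3r, at 314, 96.7 and 81.4, where S100a9 had 16.5, 14.2 and 5.81. The oligodendrocyte markers (6 genes) summed to 150325, 98974 and 119160. The 6 endothelial markers summed to 669, 405 and 563. The 10 male germ cell markers summed to 9056 in the contralateral library, against 32.8 in the MCAO left hemisphere and 40.8 in the control, so the contralateral library stood apart in that respect. The table had rows for 0 of 9 T and B lymphocyte markers. In pooled tissue, fewer cells of a type and less RNA per cell cannot be told apart. No library of RNA from before the immunoprecipitation was present, so the sums cannot be read as the cell composition of the tissue.

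**Figure D1:**
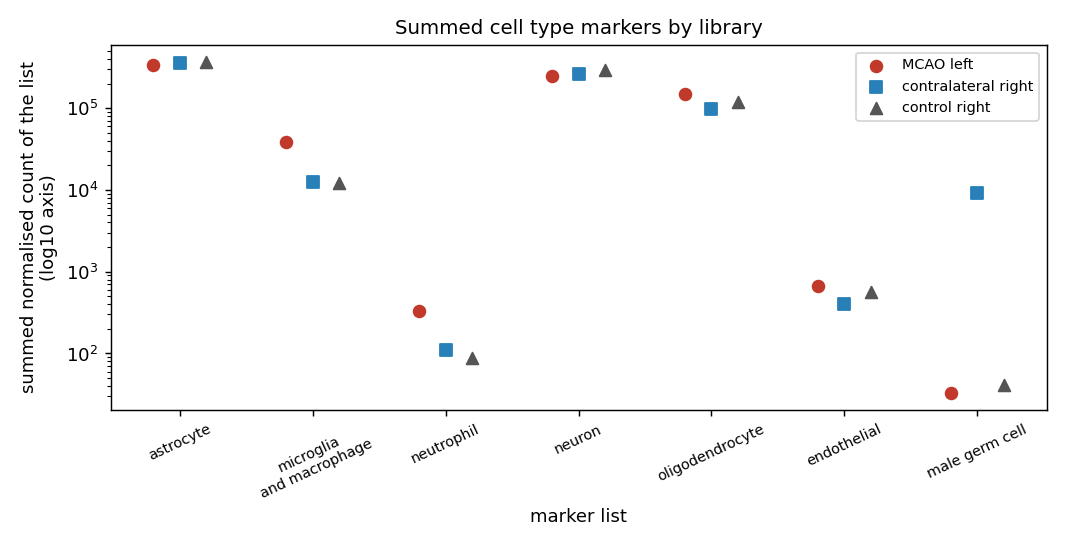
Summed normalised counts (log10 axis) of 7 cell type marker lists in the MCAO left, contralateral right and control right libraries, 1 point per library. The microglia and macrophage sum was 38251 in the MCAO left hemisphere, against 12513 and 12292 in the right hemispheres, and the male germ cell sum was 9056 in the contralateral library, against 32.8 in the MCAO left hemisphere and 40.8 in the control.

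Of the 38 genes, 36 had a mean of at least 20 normalised counts over the 3 libraries and entered the counts below. Casp12 and Ripk3 did not, and their values are given without a call. In the MCAO left hemisphere 6 of the 36 were called higher against both right hemispheres, beside a background of 2.58% of 14906 tested genes, and 0 were lower, beside 0.517%. The 6 were Tnfrsf12a, Fas, Tnfrsf1a, Casp8, Bcl2a1b and Bcl2a1d. Of these, Bcl2a1b and Bcl2a1d reached the mean of 20 only through the MCAO left library, so they had to differ, and the other 4 passed without it. Set against the control alone, 7 were higher (background 4.12%) and 0 lower (1.25%), the seventh being Tnfrsf10b. Set against the contralateral library alone, 6 were higher (background 3.18%) and 0 lower (4.96%). That last background includes 9 of 9 tested male germ cell markers. The median log2 difference of the 36 genes was 0.46 with the control as reference and 0.22 with the contralateral library, where the medians of all tested genes were -0.00 in both comparisons. Both comparisons share the MCAO library. The genes were chosen with earlier results of these data known, so the counts describe this list and do not test it.

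**Figure D2:**
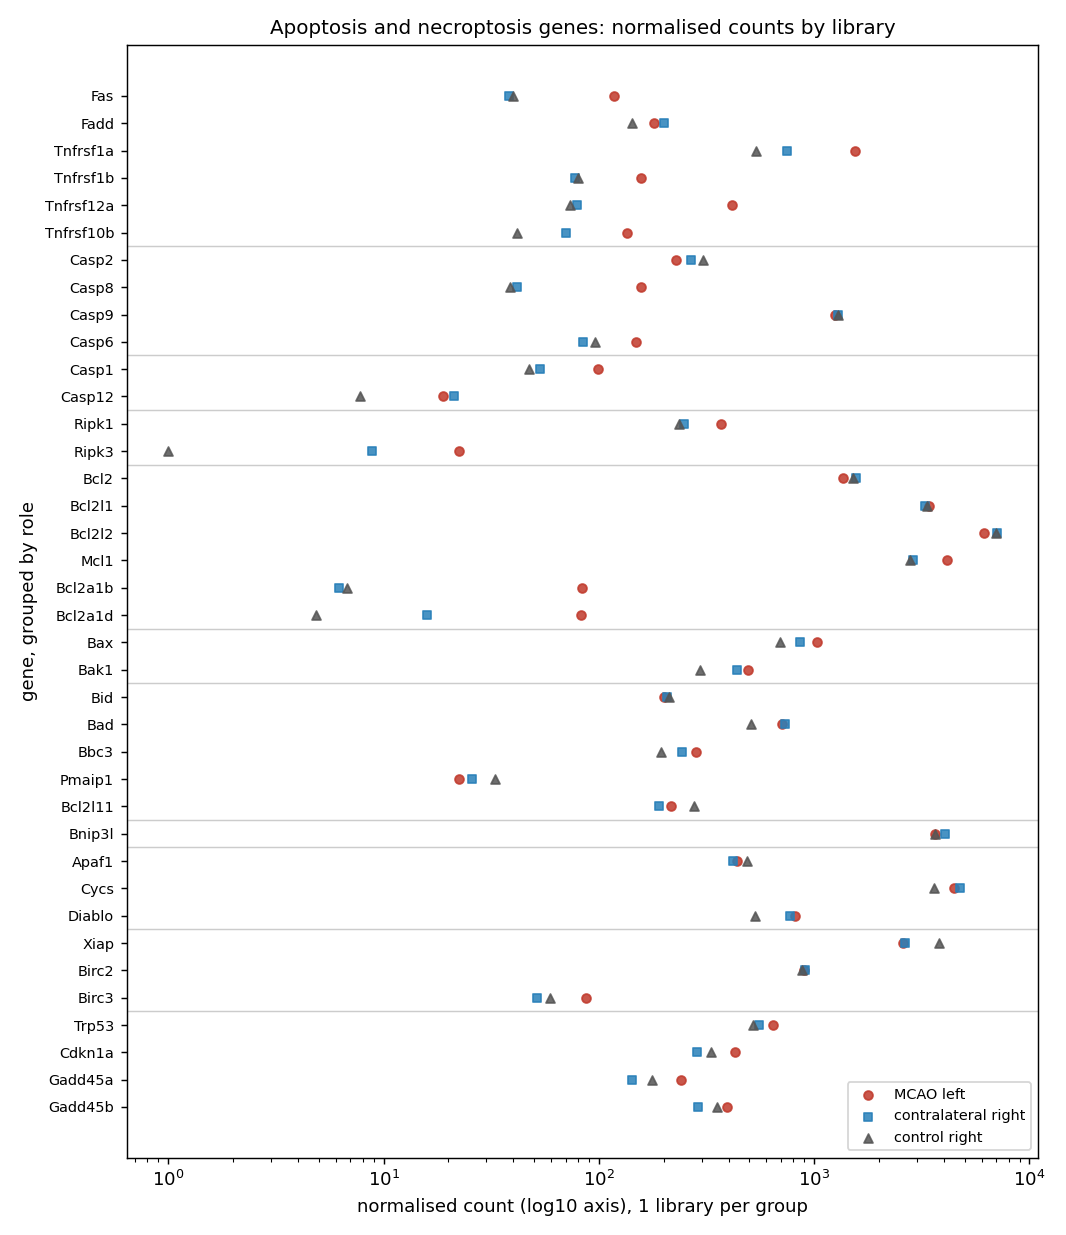
Normalised counts (log10 axis) of the 38 genes, grouped by role, with 1 point for each of the MCAO left, contralateral right and control right libraries. Tnfrsf12a, Fas, Tnfrsf1a, Casp8, Bcl2a1b and Bcl2a1d lie at least 2-fold to the right of both right hemispheres in the MCAO left library, and the control value of Ripk3 is the listed minimum of 1.

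The TNF receptors and the adaptor Fadd made up 6 of the 36 tested genes and held 3 of the 6 called genes (background 2.58%). Tnfrsf12a, the receptor for the cytokine TWEAK, which has no death domain (chromosome 17, 23675445 to 23677449), had 415 normalised counts in the MCAO left hemisphere, 79.0 in the contralateral and 73.6 in the control. The MCAO value was 5.64 times the control (4.39 to 7.33) and 5.26 times the contralateral value (4.16 to 6.71). Both right hemispheres lay close together, at 1.07-fold of each other (0.781 to 1.48). The annotated spans of Tnfrsf12a and Hcfc1r1 overlap at one end. Hcfc1r1 had 2082, 1971 and 1574 normalised counts in the MCAO left, contralateral and control libraries, a log2 difference of 0.40 against the control where that of Tnfrsf12a was 2.42.

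Fas, the death-domain receptor for Fas ligand (chromosome 19, 34290647 to 34327775), had 118 normalised counts in the MCAO left hemisphere, 38.2 in the contralateral and 39.7 in the control. The MCAO value was 2.96 times the control (2.04 to 4.37) and 3.08 times the contralateral value (2.14 to 4.52), and the contralateral value was 0.961 times the control (0.612 to 1.51). Tnfrsf1a, the main death-domain receptor for TNF (chromosome 6, 125349723 to 125362483), had 1539.7, 744 and 535 in the MCAO left, contralateral and control libraries. Unlike Fas, its contralateral value was also above the control, at 1.39-fold (1.25 to 1.55), so that the MCAO value was 2.88 times the control (2.61 to 3.19) but 2.07 times the contralateral value (1.90 to 2.26). On the log2 scale the difference of Tnfrsf1a from the contralateral library was 1.04, just inside the size that counts as called.

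Tnfrsf10b, the mouse receptor for TRAIL, showed the same graded order of libraries, with 135 normalised counts in the MCAO left hemisphere, 70.1 in the contralateral and 41.7 in the control. It was 3.25 times the control (2.27 to 4.72) and 1.93 times the contralateral value (1.44 to 2.60), just outside the called size in the second comparison. Tnfrsf1b, a TNF receptor without a death domain, had 158 in the MCAO left hemisphere, against 77.2 in the contralateral and 80.4 in the control. Its log2 differences, 0.93 with the control and 0.98 with the contralateral library as reference, also stayed short of a call. Fadd, the adaptor that joins death-domain receptors to caspase-8, was not called. It had 180.0 normalised counts in the MCAO left hemisphere, 201 in the contralateral and 142 in the control, and its ratio to the contralateral value was 0.898 (0.726 to 1.11).

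Among the caspases, Casp8 was the called gene. This initiator caspase of the extrinsic route (chromosome 1, 58795233 to 58847503) had 158 normalised counts in the MCAO left hemisphere, 41.7 in the contralateral and 38.7 in the control. It was 4.07 times the control (2.84 to 5.95) and 3.78 times the contralateral value (2.69 to 5.39), and the right hemispheres did not differ beyond counting error, at 1.08-fold (0.691 to 1.68). Casp9, the initiator of the intrinsic route, was close to level, with 1246, 1289 and 1290.05 in the MCAO left, contralateral and control libraries. Its ratio to the control was 0.966 (0.890 to 1.05). Casp2, an initiator linked to genotoxic and mitotic stress, had 227 in the MCAO left hemisphere, 268 in the contralateral and 304 in the control, a ratio of 0.746 to the control (0.621 to 0.896).

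Casp6, an executioner caspase, had 148 normalised counts in the MCAO left hemisphere, 84.3 in the contralateral and 95.9 in the control, 1.55-fold the control (1.18 to 2.03). Casp1, the inflammatory caspase that matures interleukin-1 beta and cleaves gasdermin D, had 98.8, against 53.2 in the contralateral and 47.5 in the control. Its log2 difference from the control was 0.98, just short of a call, and its ratio was 2.08 (1.45 to 3.03). Casp12, an inflammatory-family caspase associated with the endoplasmic reticulum in mice, rested on few reads. It had 18.8 normalised counts in the MCAO left hemisphere and 21.3 in the contralateral, from 16 and 24 reads, against 7.75 in the control from 8 reads.

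The necroptosis kinases were both higher in the MCAO left hemisphere than in either right hemisphere, at very different read depth. Ripk1, the kinase that sits at the branch between survival signalling, apoptosis and necroptosis, had 371 normalised counts in the MCAO left hemisphere, 249 in the contralateral and 236 in the control. It was 1.57 times the control (1.32 to 1.86) and 1.49 times the contralateral value (1.26 to 1.75), below the called size. The annotated span of Ripk1 overlaps Serpinb6a at one end, so reads may be mixed. Serpinb6a had 1403, 1278 and 1154 in the MCAO left, contralateral and control libraries. Ripk3, which phosphorylates MLKL, had 22.3 in the MCAO left hemisphere from 19 reads and 8.87 in the contralateral from 10 reads, and was listed at the minimum of 1 in the control. That minimum stands for 0 or 1 read in the control library. Set over a floor of 3 control reads, the Ripk3 value was 7.69-fold in the MCAO left hemisphere and 3.05-fold on the contralateral side. These ratios leave out counting error in the 19 and 10 reads. The MCAO value was 2.52-fold the contralateral value (1.11 to 6.06). With a mean of 10.7 it stayed below the filter.

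**Figure D3:**
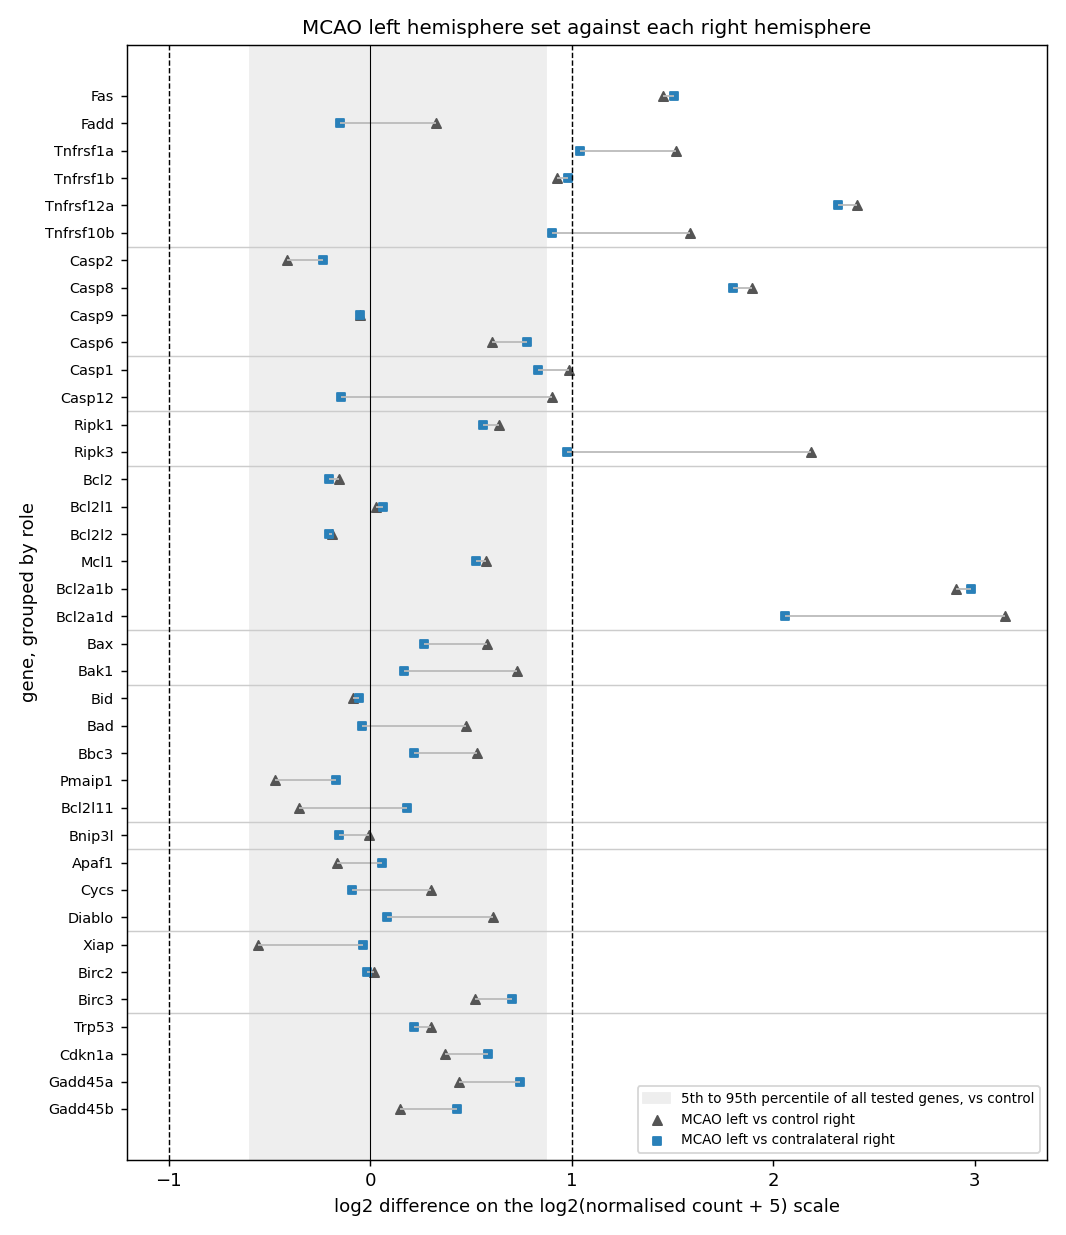
Log2 differences, on the log2(normalised count + 5) scale, of the MCAO left hemisphere from the control right (triangles) and from the contralateral right hemisphere (squares) for the 38 genes, with dashed lines at 2-fold. The grey band spans the 5th to 95th percentile of all tested genes against the control, -0.60 to 0.87, and Bcl2a1b and Bcl2a1d lie farthest above it, at 2.91 and 3.15.

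In the BCL2 family the anti-apoptotic A1 genes Bcl2a1b and Bcl2a1d had larger differences than the other survival genes. Both passed the filter only through the MCAO left library, so they had to differ. Their contrast with the other survival genes therefore describes the values and tests nothing. Mouse A1 is a family of neighbouring gene copies known from blood and immune cells. Bcl2a1b (chromosome 9, 89199273 to 89207838) had 83.5 normalised counts in the MCAO left hemisphere from 71 reads, against 6.21 in the contralateral and 6.78 in the control, from 7 reads each. It was 12.3 times the control (5.68 to 31.7) and 13.4 times the contralateral value (6.20 to 34.7). Bcl2a1d (chromosome 9, 88723288 to 88731850) had 82.3 in the MCAO left hemisphere from 70 reads, 16.0 in the contralateral from 18 reads and 4.84 in the control from 5 reads. It was 17.0 times the control (6.95 to 54.0) and 5.16 times the contralateral value (3.04 to 9.20). Bcl2a1a, another copy, outside the list of 40, had 12.9 in the MCAO left hemisphere, was listed at 1 in the contralateral library and had 5.81 in the control. Copies of one family can share reads, so the single values are uncertain, and the identity of their transcripts was not measured. The microglia and macrophage sum, which was 3.11-fold the control, moved in the same direction. Its part in the values of the A1 genes, or of any other gene higher in the MCAO left hemisphere, was not tested.

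The other survival genes differed by less. Bcl2 had 1357 normalised counts in the MCAO left hemisphere, 1565 in the contralateral and 1512 in the control, a ratio of 0.898 to the control (0.831 to 0.969). Bcl2l1, which encodes BCL-XL, had 3421, 3273 and 3348 in those libraries and a ratio of 1.02 to the control (0.972 to 1.07). Bcl2l2, which encodes BCL-W, had 6118 in the MCAO left hemisphere, 7048 in the contralateral and 6969 in the control, a ratio of 0.878 (0.847 to 0.910). Mcl1, a survival protein with a short half-life, had a higher value in the MCAO left hemisphere than in either right hemisphere. It had 4140.5 normalised counts in the MCAO left hemisphere, against 2873 in the contralateral and 2779.6 in the control, 1.49 times the control (1.42 to 1.57) and 1.44 times the contralateral value (1.37 to 1.51).

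Promoter windows of 4 called genes are shown for the likeness of the A1 copies and for their motif matches. The RefSeq table for GRCm38.p6 (mm10) gives windows from 250 bases before to 50 after a start, with 46 windows for 35 of the genes. The windows of Bcl2a1b and Bcl2a1d align over 250 bases with 3 mismatches and 6 gapped bases (98.8% of aligned bases identical). Capitals mark every match to TGANTCA, the AP-1 motif, or to TTCNNNGAA, the STAT motif, each of which reads the same on both strands. The windows are Fas at chr19:34290409-34290708 on the plus strand, Tnfrsf1a at chr6:125349473-125349772 on the plus strand, Bcl2a1b at chr9:89199023-89199322 on the plus strand and Bcl2a1d at chr9:88731801-88732100 on the minus strand.
Fas: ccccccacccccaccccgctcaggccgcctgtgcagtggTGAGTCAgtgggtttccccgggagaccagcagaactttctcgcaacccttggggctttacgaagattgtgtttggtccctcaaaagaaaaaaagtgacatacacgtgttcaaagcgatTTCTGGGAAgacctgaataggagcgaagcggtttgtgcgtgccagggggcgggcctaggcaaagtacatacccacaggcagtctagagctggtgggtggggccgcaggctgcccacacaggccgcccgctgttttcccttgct
Tnfrsf1a: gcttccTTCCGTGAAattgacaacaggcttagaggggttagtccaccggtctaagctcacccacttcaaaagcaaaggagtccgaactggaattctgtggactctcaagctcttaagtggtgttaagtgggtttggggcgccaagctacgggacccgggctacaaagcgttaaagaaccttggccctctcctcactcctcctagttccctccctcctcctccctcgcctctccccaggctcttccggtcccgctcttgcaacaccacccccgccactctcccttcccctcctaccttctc
Bcl2a1b: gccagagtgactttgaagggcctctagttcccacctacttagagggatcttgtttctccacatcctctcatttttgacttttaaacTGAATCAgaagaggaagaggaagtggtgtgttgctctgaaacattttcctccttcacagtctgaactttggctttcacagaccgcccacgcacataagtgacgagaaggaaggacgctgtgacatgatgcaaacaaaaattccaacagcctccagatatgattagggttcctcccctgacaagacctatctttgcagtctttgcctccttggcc
Bcl2a1d: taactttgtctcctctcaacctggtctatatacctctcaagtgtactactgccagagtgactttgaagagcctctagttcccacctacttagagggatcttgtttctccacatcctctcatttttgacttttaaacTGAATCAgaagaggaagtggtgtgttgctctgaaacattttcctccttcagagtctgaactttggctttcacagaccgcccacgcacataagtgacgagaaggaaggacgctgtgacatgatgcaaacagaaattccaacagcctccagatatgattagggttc
TGANTCA was found in 3 of the 35 genes, and those were Fas, Bcl2a1b and Bcl2a1d, of which the A1 pair carries it in the shared stretch. It begins 211 bases before the start in Fas, 164 in Bcl2a1b and 114 in Bcl2a1d. That is 3 of the 46 windows (6.52%), of which 2 are the near-identical A1 copies, where 7.81% of all 32851 promoter windows held it. TTCNNNGAA was found in 5 of the 35 genes, namely Casp12, Fas, Tnfrsf1a, Tnfrsf1b and Ripk1. That is 5 of the 46 windows (10.9%), where 8.30% of all windows held it, so both shares were near those of all promoters. In Fas it begins 93 bases before the start and in Tnfrsf1a 244. The windows of Casp8 and Tnfrsf12a held neither set of letters. These are letter matches in a window, and no binding was measured.

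The pore-forming effectors had values above the control in both libraries of the animals with MCAO, and neither was called. Bax, which forms pores in the outer mitochondrial membrane, had 1035 normalised counts in the MCAO left hemisphere, 859 in the contralateral and 692 in the control. It was 1.5-fold the control (1.35 to 1.65) on the MCAO side and 1.24-fold (1.13 to 1.37) on the contralateral side. Bak1, the second pore-forming protein, had 490.5 in the MCAO left hemisphere and 437 in the contralateral, against 294 in the control. Its ratio to the control was 1.67 (1.43 to 1.94) on the MCAO side and 1.48 (1.28 to 1.72) on the contralateral side. Bak1 overlaps Ggnbp1, which had 227 normalised counts in the contralateral library, against 18.8 in the MCAO left hemisphere and 16.5 in the control. Reads of the 2 genes may be mixed, since the strand setting is not given in the sources used here.

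Diablo, whose product leaves mitochondria and blocks inhibitors of apoptosis, had 815 normalised counts in the MCAO left hemisphere and 770.1 in the contralateral, against 533 in the control. Its MCAO and contralateral values were 1.53-fold (1.37 to 1.71) and 1.45-fold (1.30 to 1.61) the control, and the MCAO value was 1.06-fold the contralateral value (0.956 to 1.17). Cycs, which encodes cytochrome c, had 4456 and 4749 in the MCAO left and contralateral libraries, against 3611 in the control. Apaf1, the scaffold of the apoptosome, had 436 and 419 against 490.1 in the control. Its ratios to the control were 0.890 (0.777 to 1.02) on the MCAO side, an interval that holds 1, and 0.855 (0.752 to 0.971) on the contralateral side. Xiap, which inhibits caspases directly, was the member with the lowest difference from the control on the MCAO side. It had 2579.6 normalised counts in the MCAO left hemisphere and 2648 in the contralateral, against 3800.4 in the control, ratios of 0.679 (0.644 to 0.715) and 0.697 (0.664 to 0.731).

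The cellular inhibitors Birc2 and Birc3, ubiquitin ligases that act on RIPK1 downstream of TNF receptors, differed from each other. Birc2 had 893 normalised counts in the MCAO left hemisphere, 902 in the contralateral and 881 in the control, a ratio of 1.01 to the control (0.919 to 1.12). Birc3 had 87.0, against 51.5 in the contralateral and 59.1 in the control, ratios of 1.47 to the control (1.04 to 2.10) and 1.69 to the contralateral value (1.18 to 2.43).

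None of the 5 BH3-only genes was called, and they did not share a direction. Bad, which is held inactive by growth factor signalling, had 709 normalised counts in the MCAO left hemisphere and 730.2 in the contralateral, against 508 in the control. It was 1.39-fold the control (1.24 to 1.57) on the MCAO side. The annotated span of Bad overlaps Gpr137 at one end, so reads may be mixed. Gpr137 had 2294, 2252 and 2448 in the MCAO left, contralateral and control libraries. Bbc3, the p53 target also called PUMA, had 282 and 242 in the MCAO left and contralateral libraries, against 194 in the control. Its ratio to the control was 1.46 on the MCAO side (1.20 to 1.77). Bcl2l11, which encodes BIM, had 216 and 190 in the MCAO left and contralateral libraries, against 278 in the control. Its ratio to the control was 0.779 (0.644 to 0.940) on the MCAO side and 0.683 (0.570 to 0.818) on the contralateral side. Bid, which caspase-8 cleaves to join both routes, had 199.96, 208 and 212 in the MCAO left, contralateral and control libraries. Pmaip1, which encodes NOXA, rested on 19, 29 and 34 reads in that order, and its ratio to the control was 0.679 (0.366 to 1.22). Bnip3l, a mitochondrial receptor for mitophagy, had 3638, 4045 and 3649, a ratio of 0.997 to the control (0.950 to 1.05).

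Trp53, Cdkn1a and the growth arrest genes Gadd45a and Gadd45b were read as 1 group of 4 genes. All had somewhat higher values in the MCAO left hemisphere than in either right hemisphere. None was called, and the interval of Gadd45b against the control holds 1. Trp53 itself had 645 normalised counts in the MCAO left hemisphere, 553 in the contralateral and 522 in the control, 1.23-fold the control (1.09 to 1.39). Cdkn1a, the p53 target p21 that arrests the cell cycle, had 429, against 285 in the contralateral and 330.3 in the control. It was 1.30 times the control (1.12 to 1.51) and 1.51 times the contralateral value (1.29 to 1.76). Gadd45a and Gadd45b, stress genes of growth arrest, followed the same order of libraries as Cdkn1a, with the contralateral library lowest. Gadd45a had 241 in the MCAO left hemisphere, 142 in the contralateral and 176 in the control, 1.70-fold the contralateral value (1.37 to 2.10). Gadd45b had 393, 290.1 and 354 in those libraries, 1.35-fold the contralateral value (1.16 to 1.58) and 1.11-fold the control (0.953 to 1.29).

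A wider list of death genes outside the 40, also chosen with earlier results of these data known, was read in the same way. The deposited table held 52 of its genes, of which 46 passed the filter, and 5 were higher than in both right hemispheres and 0 lower, with the backgrounds of 2.58% and 0.517% given above. The 5 were Birc5, Naip2, Naip5, Nlrp3 and Pycard, and with a pseudocount of 20 the count was 3 (background 2.14%). Against the control alone 9 were higher (background 4.12%) and 0 lower (1.25%). Against the contralateral library alone 6 were higher (3.18%) and 1 was lower (4.96%). Naip5 reached the mean of 20 only through the MCAO left library, so it had to differ, as did Tnfsf10 and Bcl2l14 in the comparison with the contralateral library, each of which passed through its highest library alone. Pycard, the inflammasome adaptor ASC, had 168 normalised counts in the MCAO left hemisphere, 46.1 in the contralateral and 28.1 in the control, 5.99-fold the control (4.0 to 9.26). Nlrp3, an inflammasome sensor, had 72.9, 30.2 and 15.5 in those libraries. Birc5, which encodes survivin and also serves in mitosis, had 127, 49.7 and 19.4. Naip2 and Naip5, sensors of bacterial proteins that belong to a family of close copies, had 99.98 and 38.8 in the MCAO left hemisphere, against 28.4 and 9.76 in the contralateral and 32.9 and 12.6 in the control. The median log2 difference of the 46 genes was 0.16 with the control as reference and 0.14 with the contralateral library.

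The contralateral right hemisphere was also set against the control right hemisphere. Of the 36 genes 1 was called higher, Bcl2a1d, against a background of 5.17% of tested genes, and 0 were lower, against 0.362%. Bcl2a1d passed the filter only through the MCAO left library, and with a pseudocount of 20 its log2 difference was 0.53 and the count 0. The median log2 difference of the 36 genes was 0.04, where that of all tested genes was -0.00. Bcl2a1d was 3.3-fold the control (1.18 to 11.4), from 18 and 5 reads, while its near copy Bcl2a1b was at 0.916-fold (0.274 to 3.06). Of the members 33 of 36 lay between the 5th and 95th percentile of all tested genes, -0.45 to 1.05. The exceptions were Bcl2a1d above, and Bcl2l11 and Xiap below, at -0.54 and -0.52. Casp12, below the filter, was 2.75-fold the control (1.19 to 7.08). In the wider list 3 of 46 genes were higher and 0 lower, of which Bcl2l14 passed the filter only through the contralateral library and so had to differ. Bcl2l14, a BCL2 relative, had 223 in the contralateral library and was listed at 1 in both other libraries. Its contralateral value was 76.6 times a floor of 3 control reads, with counting error left out. Bcl2l12 had 63.9 in the contralateral library, against 19.4 in the control, and Birc5 had 49.7 against 19.4. The male germ cell sum was 222-fold the control in this library, and the background of 5.17% includes 9 of 9 tested male germ cell markers. The part of male germ cell transcripts in these values or in that background was not tested.

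**Figure D4:**
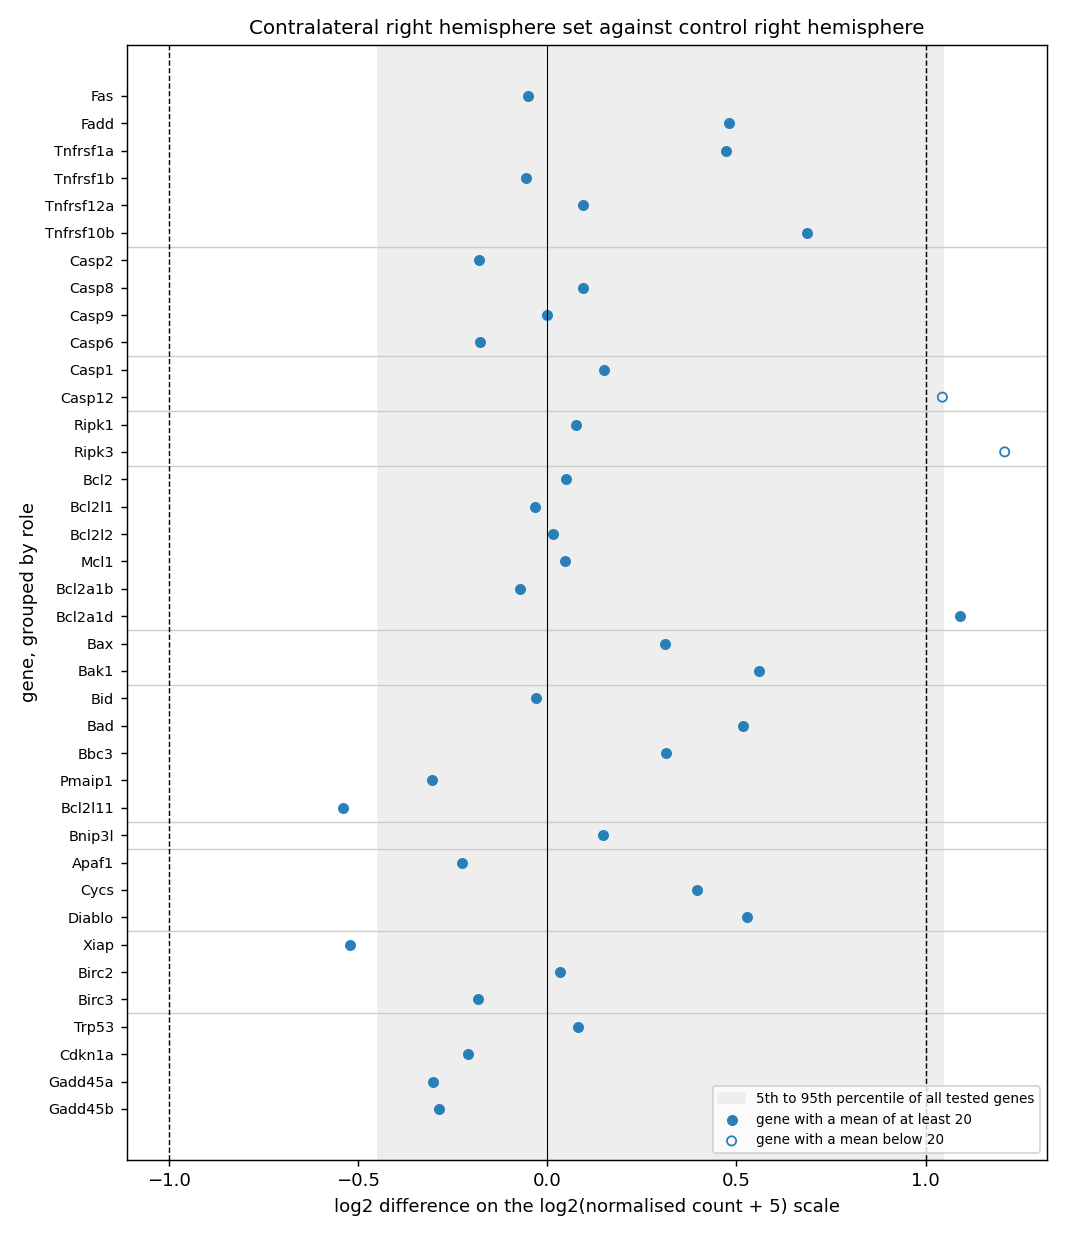
Log2 differences, on the log2(normalised count + 5) scale, of the contralateral right from the control right hemisphere for the 38 genes, with dashed lines at 2-fold and a grey band from the 5th to the 95th percentile of all tested genes (-0.45 to 1.05). Open circles mark Casp12 and Ripk3, which had a mean below 20 normalised counts, and Bcl2a1d, at 1.09, is the 1 filled point above the band.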

How the data were processed

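The deposited table holds a signal that the authors normalised, gene-level reads over 1 size factor for each library. Software given without roles in the submitters' processing notes was HISAT2 2.0.11, CASAVA 1.8, DESeq2, R 3.3.1 and Partek 6.6, with the build mm10. Values under 1 were listed as 1. Reads were recovered from what 1 read was worth, 1.18 normalised counts in the MCAO left, 0.887 in the contralateral and 0.969 in the control library. Of the values above 1, 99.9% in each library were whole within 0.1 read. In the MCAO left library that holds only once the values listed at 1 are set aside, since 1 read was worth more than 1 there. The recovered reads serve for depth, intervals and 1 scaling alternative, and no count model was fitted.

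Columns were matched to libraries by the sample descriptions, and 0 columns were left unused. Computation used Python 3.11.15, pandas 2.3.3, numpy 2.4.6, scipy 1.17.1 and Biopython 1.88. Every member in the table is described. From the wider list, genes called against both right hemispheres or in the contralateral comparison are named, and Bcl2a1a was named after its values were seen. Members and lists were chosen with earlier results of these data known. RefSeq spans of 15 members overlap another gene. Intervals treat reads as independent molecules, which reads without molecular identifiers are not.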

Additional observations from a re-analysis of the deposited data

How the results depend on the processing

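No paired analysis was possible because each group had 1 library. The 6 genes called higher in the MCAO left hemisphere than in both right hemispheres were the same 6 with a pseudocount of 1 or 20, without the filter, scaled by library totals and, in an alternative chosen after seeing the data, scaled by a trimmed mean of log ratios. The backgrounds in that order were 2.72%, 2.14%, 3.01%, 2.56% and 2.57%. Without the contralateral library only the comparison with the control is left, with the 7 genes given above (background 4.12%). At 1.5-fold the count against both right hemispheres was 10 (background 4.88%). It was 13 against the control (9.16%), 12 against the contralateral library (6.19%) and 2 for the contralateral library against the control (8.43%). In that last comparison the count was 0 with a pseudocount of 20 (background 4.41%), where Bcl2a1d had a log2 difference of 0.53, and 3 without the filter (8.52%), which adds Casp12 and Ripk3. With a pseudocount of 1, Casp1 reached 1.04 against the control and Tnfrsf1b 1.02 against the contralateral library. In the wider list a pseudocount of 20 gave 5 genes higher than the control, 3 higher than the contralateral library and 3 higher than both, beside 3.19%, 2.48% and 2.14% of all genes. At 1.5-fold 8 were higher than both, 8 contralateral values were higher than the control and 1 MCAO left value was lower than the control, beside 4.88%, 8.43% and 5.18%. Without the filter 1 of 52 was lower than the control in the MCAO left hemisphere and 1 in the contralateral library, beside 1.78% and 0.674%. A planned scaling by edgeR's TMM was not run. With 1 library per group, variation between animals cannot be separated from any difference, and genes such as Ripk3, Casp12 and the A1 copies rest on few reads.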
